A study of Homo sapiens with 18 samples.

Results

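The genes described here were chosen by their own gain in the first of 3 RNA-seq experiments on BE(2)-m17 cells, a human neuroblastoma line. Counts were scaled to CPM, a gene's counts relative to the library's total over the Ensembl genes, and a gene was taken if it averaged at least 0.5 CPM in the ABCC1-overexpressing cells of experiment RNA1 and if log2 of its mean there plus 0.05 over its mean in the empty vector control plus 0.05 came to at least 1.5. IL1RAPL2 and TLL1 were left out by the rule. This selected 52 of 57905 genes, among 15112 that reached the minimum CPM in those cells. Because the RNA1 libraries chose the genes, their RNA1 values are a description with no test, and all tests use the libraries of experiments RNA2 and RNA3, which had no part in the choice.

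Every line used here carried the vector pSBbi-Hyg-APP, which holds the amyloid precursor protein cDNA, and was grown in medium with serum for RNA extraction on day 4 after plating. The groups differed in a further Sleeping Beauty vector: pSBbi-Pur without an insert (Puro) or pSBbi-Pur-ABCC1(WT), which encodes codon-optimized human ABCC1 (ABCC1). Each of the 3 experiments held 3 Puro and 3 ABCC1 libraries, 18 in all, and asked which transcripts change when this exporter is overexpressed. The labels give the experiments numbers only. The study names frozen stocks before a new transfection for its repeats, and this order is the ground used here for reading RNA2 as the former and RNA3 as the latter. The study also gives changes of TIMP3 and CD38 for each of these repeats by name, which were not compared with the counts here. Vectors of this kind insert at many places in the genome. Whether a line grew from a single clone is not given in the sources used here, and the libraries are repeat cultures of the same line within a group, so p-values measure the spread between these cultures. RNA1 was made with an mRNA kit according to the study's methods (its labels name that kit and a total RNA kit), and RNA2 and RNA3 with a total RNA kit, so levels were not tested between RNA1 and the repeats.

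ABCC1 is an ATP-driven pump in the cell membrane that exports glutathione conjugates, drugs and other organic anions. BE(2)-m17 cells are neuroblasts of the sympathetic lineage, whose identity is set by transcription factors such as HAND2 and GATA3. None of the genes chosen here is among the 12 genes used below to mark that identity.

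The libraries held 8866994 to 57937653 assigned read pairs. Counts on the inserted ABCC1 ran from 51035 to 594404 in the ABCC1 libraries and from 0 to 15 in the Puro libraries. The 12 neuroblast identity genes were detected in every group, with 8188 to 13660 CPM in sum over a library, while 7 immune marker genes summed to 0.348 to 0.733 CPM in RNA1 and to 3.74 to 26.6 CPM in RNA2, where 0 of the 7 were called between the groups by edgeR (at an adjusted p of at most 0.05). In RNA3 they summed to 30.4 to 64.1 CPM, and 2 of the 7 were called lower by edgeR, where 0.767% of all genes tested were. As a background, the reads on 334 olfactory receptor genes were measured, which this tissue is not known to use and which were under 0.01 CPM in RNA1. Per kb of exon they had 0.631 ± 0.131 CPM in the Puro and 0.291 ± 0.156 CPM in the ABCC1 libraries of RNA2 (SD, n = 3 each), and 1.68 ± 0.240 CPM and 1.21 ± 0.247 CPM in those of RNA3. In RNA1 they had 0.000496 and 0.000391 CPM, a level kept low by the choice of these genes. In RNA2 every ABCC1 library had less background (0.125 to 0.436) than every Puro library (0.532 to 0.779), and in RNA3 the ranges of 1.07 to 1.5 and 1.399 to 1.82 overlapped. Its part in the results below was examined only as a covariate. In RNA2 a covariate cannot separate it from the ABCC1 effect, since the groups do not overlap, and this holds for every RNA2 value given with it. In such bulk RNA, fewer cells that express a gene and less of its RNA per cell cannot be told apart.

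In RNA1 the 52 genes went from a median of 0.193 CPM in Puro cells to 1.21 CPM in ABCC1 cells, with log2 ratios from 1.503 to 6.18 and a median of 2.10. All 52 had every ABCC1 library above every Puro library, a gap that the rule favours and that 31.0% of the 15112 genes above the minimum also showed. The SD of the ABCC1 libraries was 2.02% to 31.4% of a gene's mean, with a median of 12.7%. Most of the genes were rare transcripts: a library of ABCC1 cells held 13 to 1167 counts of them with a median of 56.5, and a Puro library 0 to 273 counts with a median of 7. In 4 genes, ENSG00000236098, GHRH, GNAT3 and PLA2G4E, all Puro libraries had 0 counts, and 13 genes had 3 counts or fewer in each. For these 13 the Puro libraries were set to 3 counts each, so that the ABCC1 level was at least 5.92-fold higher for MIR4500HG and at least 39.2-fold higher for ENSG00000236098. The other 39 were between 2.90-fold and 27.3-fold higher, the last being PPP1R3A, whose Puro mean rested mostly on replicate 1 and whose level was 64.3-fold higher without that library.

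**Figure D1:**
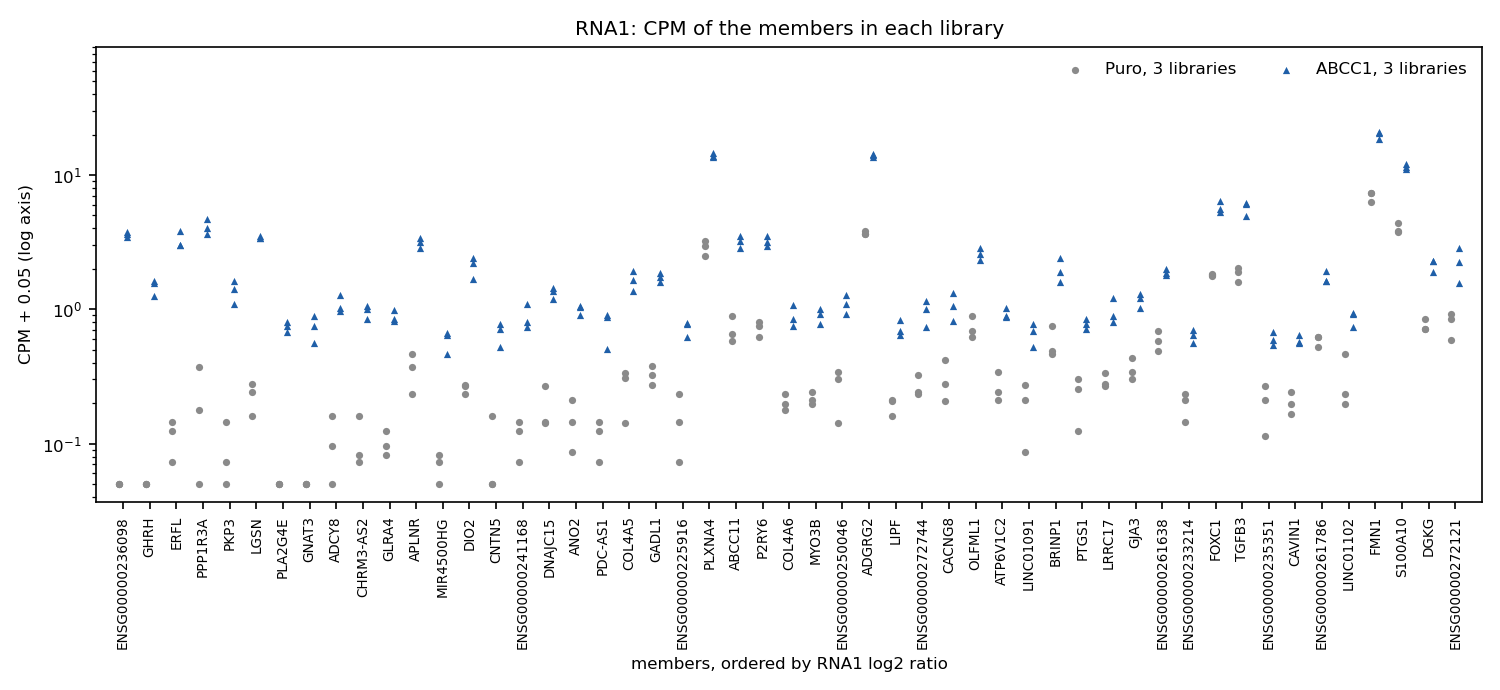
CPM plus 0.05 (log axis) of 51 of the 52 genes in the 3 Puro libraries (grey circles) and 3 ABCC1 libraries (blue triangles) of RNA1, ordered by the log2 ratio that chose them. Every blue point of a gene lies above its grey points, and ENSG00000236098 and GHRH at the far left have all grey points at 0 counts.

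At the edge of the rule, ENSG00000272121, DGKG and S100A10 were just inside with log2 ratios of 1.503, 1.52 and 1.53, while HTR2B, HSPA2-AS1 and TM4SF4 just missed it with 1.48, 1.48 and 1.48. On the side of abundance, MIR4500HG, CAVIN1 and ENSG00000235351 were just inside with 0.540, 0.542 and 0.553 CPM, and LINC02346, CYP1A2 and GRXCR1 were outside with 0.498, 0.478 and 0.476 CPM.

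By the GENCODE 29 annotation, 37 of the 52 genes were protein coding, 12 were lincRNAs and 3 were antisense RNAs. They were spread over 20 chromosomes, with 5 on each of chromosomes 2, 3 and 11 and fewer on the others. Genes of at least 100 kb made up 34.6% of them (18 genes) against 19.2% of the genes above the minimum CPM, among them CNTN5 with 1338 kb. Their exons had a median length of 3898 bp against 4526 bp. Only 2 sets of them lay within 1 Mb of each other. COL4A5 (GRCh37 chromosome X, 107683074 to 107940775, plus strand) and COL4A6 (107386780 to 107682727, minus strand) stand head to head with 346 bp between them, and the lincRNAs ENSG00000261786 and ENSG00000272121 on chromosome 3 are 118149 bp apart. GLRA4 (chromosome X, 102962152 to 102983583, minus strand) lies 827412 bp from IL1RAPL2, the excluded gene, whose RNA1 log2 ratio was 6.495, and 4.403 Mb from COL4A6. The remaining X-linked gene, ADGRG2, lies 83.8 Mb from GLRA4. Since counting ignored the strand, reads of an overlapping gene can be assigned to either gene: 20 of the 52 overlapped no other gene, 16 shared exon bases with another, and 3 shared more than 25% of their exon bases, namely ENSG00000250046 (30.7%, with the pseudogene GET1P1), ATP6V1C2 (31.4%, mostly with PDIA6) and ENSG00000235351 (36.0%, with ING5).

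RefSeq promoter windows of 300 bases around a gene's start on GRCh38.p14, most of each before it, were found for 32 of the 52 genes. They held a median of 6 CG dinucleotides against 14 over all 27305 windows. The letters TATAAA, searched on both strands as were all motifs, occurred in 8 of the 32 (25%) and in 11.95% of all windows, and the GC box GGGCGG in 12 (37.5%) against 44.6%. The CRE letters TGACGTCA occurred in 0 of the 32 (1.98% of all windows), the AP-1 letters TGANTCA in 2 (6.25% against 7.76%) and the E-box CACGTG in 1 (3.13% against 7.44%). None of these motifs contains another. They are matches of letters and no evidence of binding. Windows, placed at the RefSeq start, are shown for the gene that was higher again in RNA2 (PPP1R3A), the gene that fell in RNA3 (CHRM3-AS2), the head-to-head collagen pair and a gene with a CG-rich window (ERFL). They are on the minus strand at chr7:113918960-113919259, the minus strand at chr1:239719070-239719369, the plus strand at chrX:108439588-108439887 (COL4A5), the minus strand at chrX:108439409-108439708 (COL4A6, the first of its windows) and the minus strand at chr19:41928400-41928699. Capitals mark a TATAAA match on the other strand in PPP1R3A and GC boxes on either strand in ERFL. The other windows shown hold none of the motifs.
PPP1R3A: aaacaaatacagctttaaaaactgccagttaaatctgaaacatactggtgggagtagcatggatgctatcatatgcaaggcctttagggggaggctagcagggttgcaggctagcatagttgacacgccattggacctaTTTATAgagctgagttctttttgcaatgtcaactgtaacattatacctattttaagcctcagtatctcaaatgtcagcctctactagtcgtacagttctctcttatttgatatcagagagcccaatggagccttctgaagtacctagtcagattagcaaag
CHRM3-AS2: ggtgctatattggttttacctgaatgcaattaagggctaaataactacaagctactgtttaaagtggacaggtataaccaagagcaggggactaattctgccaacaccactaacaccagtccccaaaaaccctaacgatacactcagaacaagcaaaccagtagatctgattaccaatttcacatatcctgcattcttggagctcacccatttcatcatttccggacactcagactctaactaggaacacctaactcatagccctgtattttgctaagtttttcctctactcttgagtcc
COL4A5: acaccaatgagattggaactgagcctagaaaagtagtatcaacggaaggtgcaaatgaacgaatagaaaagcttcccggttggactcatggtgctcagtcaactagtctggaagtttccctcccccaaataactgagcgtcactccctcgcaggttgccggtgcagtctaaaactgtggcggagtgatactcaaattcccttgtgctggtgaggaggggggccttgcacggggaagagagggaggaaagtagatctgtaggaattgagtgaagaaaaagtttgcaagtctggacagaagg
COL4A6: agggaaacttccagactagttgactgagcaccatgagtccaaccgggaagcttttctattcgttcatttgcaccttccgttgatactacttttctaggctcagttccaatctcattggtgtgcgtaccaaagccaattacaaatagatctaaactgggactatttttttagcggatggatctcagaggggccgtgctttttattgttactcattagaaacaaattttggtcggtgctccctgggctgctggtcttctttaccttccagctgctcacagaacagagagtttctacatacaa
ERFL: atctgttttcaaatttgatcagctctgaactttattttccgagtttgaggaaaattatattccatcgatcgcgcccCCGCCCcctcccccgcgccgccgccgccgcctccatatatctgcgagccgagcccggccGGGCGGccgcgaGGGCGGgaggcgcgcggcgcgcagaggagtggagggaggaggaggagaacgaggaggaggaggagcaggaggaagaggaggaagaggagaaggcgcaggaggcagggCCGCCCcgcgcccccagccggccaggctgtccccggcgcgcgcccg
The COL4A5 and COL4A6 windows share 121 bases, read on opposite strands, and hold 8 and 7 CG dinucleotides. The window of ERFL holds 35 and those of PPP1R3A and CHRM3-AS2 hold 2 each.

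In RNA2, 49 of the 52 genes had enough counts to be tested, and 1 of them, PPP1R3A, was higher in ABCC1 cells at an adjusted p of at most 0.05 (edgeR's quasi-likelihood F-test, with p-values adjusted by Benjamini and Hochberg's method across 34091 genes). Over all genes 1.25% were called higher and 0.458% lower. None of the 49 was called lower by edgeR or limma-voom, nor any of the 34 to which DESeq2 gave an adjusted p, and at an unadjusted p of at most 0.05 edgeR had 4 higher and 10 lower, where 10.6% and 10.7% of all genes were. Without ABCC1 replicate 3, 2 genes were called lower, ABCC11 and DGKG. Their median log2FC was −0.19, the same as over all genes tested, with 18 values above 0 and 31 below, where 40.7% of all genes tested were above 0. The 95% interval of the log2FC ended below 1.5, the rule's threshold, in 39 of the 49. Background reads enter both groups and lower the log2FC of a gained gene, so this count does not show that the RNA1 gain was absent. For example, ADCY8 went from 0.0519 to 1.04 CPM in RNA1 but had 4.91 CPM in the RNA2 Puro cells.

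In RNA3, 48 genes were tested. The antisense RNA CHRM3-AS2 was called lower (edgeR's quasi-likelihood test, adjusted over 36509 genes), where 0.767% of all genes were, and no gene of the set was called higher, where 2.03% of all genes were. Limma-voom called 0 of the 48 higher and DESeq2 0 of the 14 to which it gave an adjusted p, and at an unadjusted p of at most 0.05 edgeR had 2 higher and 4 lower, where 7.58% and 7.63% of all genes were. Without Puro replicate 2, 2 genes were called lower, CHRM3-AS2 and MYO3B. The median log2FC was −0.23 against −0.09 over all genes tested, with 12 values above 0 and 36 below, where 41.6% of all genes tested were above 0. In 46 of the 48 the 95% interval ended below 1.5, a count with the same limit from background reads as in RNA2.

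Library by library, 5 of the 49 genes tested in RNA2 had all ABCC1 libraries above all Puro libraries, 10 had all below and 34 overlapped. Among all genes tested 5.17% lay above and 22.3% below. In RNA3 the numbers were 2 above, 4 below and 42 overlapping, against 6.93% above and 14.5% below over all genes. COL4A6 and ENSG00000233214 lay below in both repeats, and PDC-AS1, ENSG00000235351 and ENSG00000272121 above in both, PDC-AS1 with too few counts in RNA3 for a test. The share of all genes that lay on the same side in both repeats was not computed. With 3 libraries a group, 0.1 is the smallest two-sided p of an exact permutation test. Over the 47 genes tested in both repeats, which share no library, the log2FC had a Pearson correlation of 0.55 and a Spearman correlation of 0.45. The sign was the same for 33 of them, 7 positive and 26 negative, where over all 32521 genes tested in both 27.6% were positive and 44.1% negative in both. The mean background was lower in the ABCC1 cells of both experiments. With the background as a covariate in both fits the sign was the same for 34, of which 24 were positive and 10 negative. The share over all genes was not computed with the covariate, so a shift of all genes cannot be told apart from one of this set. In RNA2 the background did not overlap between the groups, so it and the ABCC1 effect cannot be told apart there.

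**Figure D2:**
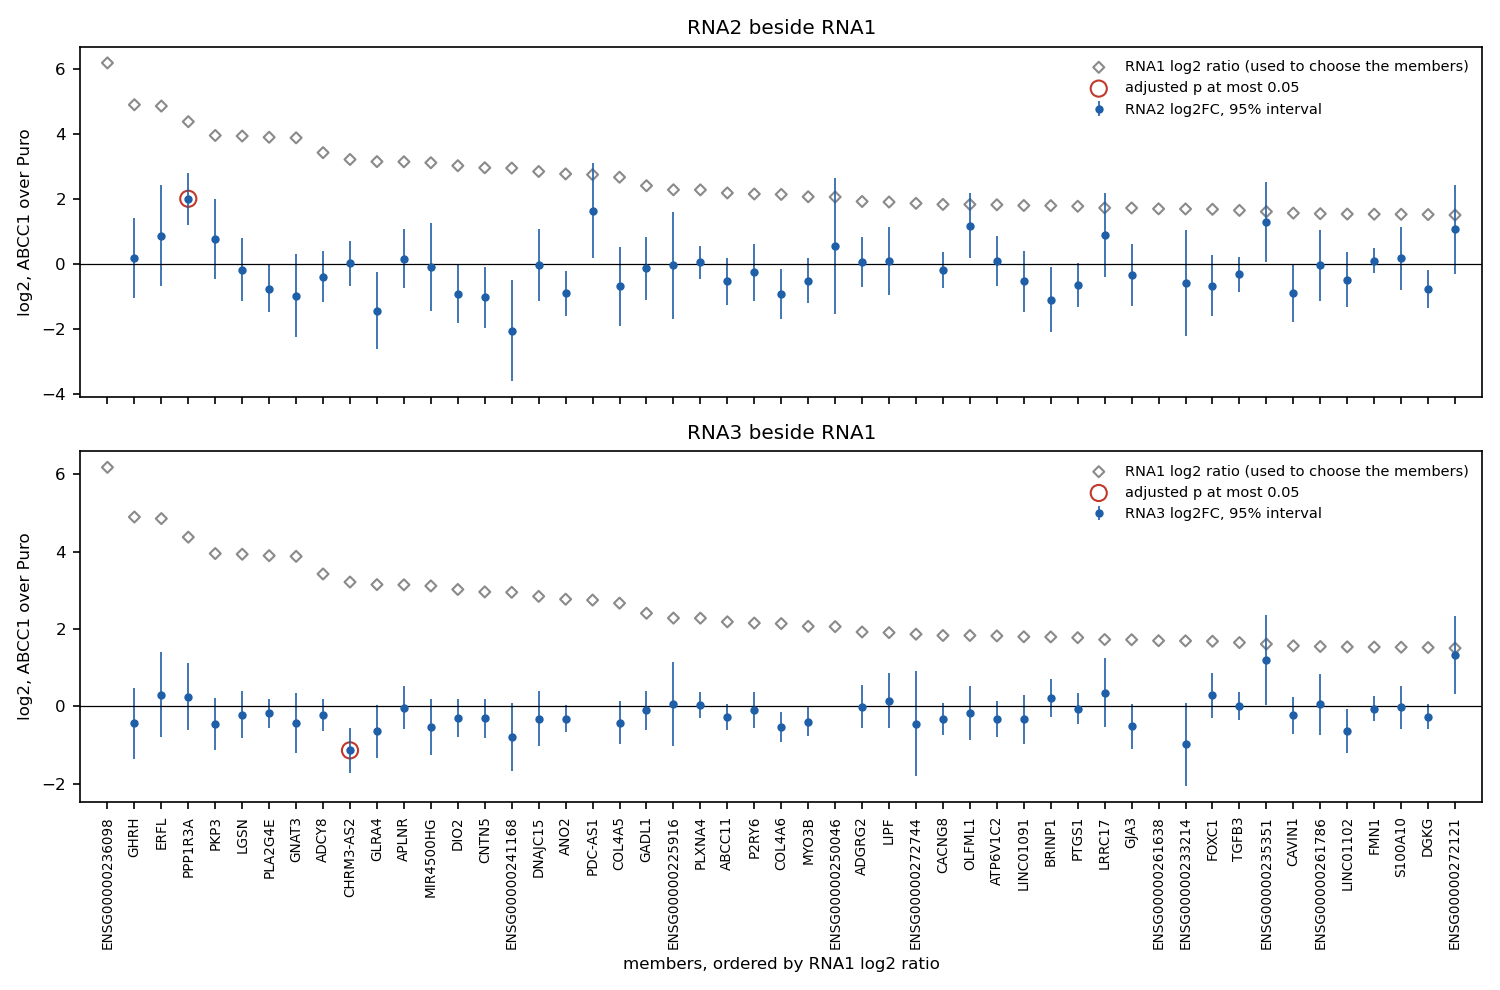
Log2 ratio of 51 of the 52 genes in RNA1 (grey diamonds, the values that chose them) beside the edgeR log2FC with its 95% interval in RNA2 (upper panel) and RNA3 (lower panel), with genes left blank where counts were too low for a test. The repeat values lie on both sides of 0, more of them below it, the RNA1 ratios start at 1.503 by the rule, and red circles mark the only genes with an adjusted p of at most 0.05, PPP1R3A in RNA2 and CHRM3-AS2 in RNA3.

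The difference of the ABCC1 effect between RNA3 and RNA2 was tested for all 52 genes in a fit of the 12 repeat libraries. None was called by edgeR, DESeq2 or limma-voom, and at an unadjusted p of at most 0.05 edgeR had 1 with a larger and 4 with a smaller log2FC in RNA3, where 5.36% and 0.984% of all genes were. Among all 41448 genes of this fit 0.00724% were called. PPP1R3A had the smallest p of the set, with a difference of −1.73 (standard error 0.59, 95% interval −2.93 to −0.54, unadjusted p = 0.00575, adjusted p = 0.711 from edgeR).

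PPP1R3A (ENSG00000154415; GRCh37 chromosome 7, 113516832 to 113715975, minus strand, overlapping no other gene) encodes the regulatory subunit that tethers protein phosphatase 1 to glycogen in skeletal muscle. In RNA1 its counts were 14, 0 and 4 with the empty vector and 259, 126 and 204 with ABCC1, or 0.149 ± 0.161 and 4.08 ± 0.555 CPM (SD, n = 3 each). In RNA2 they were 33, 33 and 33 against 104, 136 and 199, or 1.495 ± 0.266 and 5.26 ± 1.56 CPM. The groups did not overlap, and the log2FC was 2.00 (standard error 0.38, 95% interval 1.21 to 2.80, adjusted p = 0.0137 from edgeR). The adjusted p from the same test was 0.0516 without Puro replicate 2, 0.0960 without Puro replicate 3 and 0.0979 without ABCC1 replicate 2, with log2FC values from 1.87 to 2.13. Per kb of exon, PPP1R3A had 0.468 to 0.581 times the background in the RNA2 Puro libraries and 3.18 to 5.98 times in the ABCC1 libraries. In RNA3 it had 15, 17 and 28 counts against 40, 26 and 15, and the groups overlapped (log2FC 0.25, 95% interval −0.62 to 1.12). All of these RNA3 values were below the background, at 0.180 to 0.510 times its level.

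CHRM3-AS2 (ENSG00000233355; chromosome 1, 239866684 to 239893765, minus strand) is transcribed opposite the muscarinic receptor gene CHRM3, with which it shares 266 exon bases (6.84% of its exons). It went from 1, 3 and 1 counts in the RNA1 Puro libraries to 56, 25 and 55 with ABCC1, at least 10.1-fold more. In RNA2 it had 99, 135 and 63 counts in Puro cells and 116, 87 and 114 in ABCC1 cells, which overlapped (log2FC 0.02, 95% interval −0.67 to 0.71). In RNA3 the counts were 78, 81 and 101 against 70, 30 and 33, or 8.74 ± 2.39 and 3.71 ± 2.21 CPM (SD, n = 3 each), with every ABCC1 library below every Puro library. The log2FC was −1.14 (standard error 0.29, 95% interval −1.71 to −0.57, adjusted p = 0.0105 from edgeR). With the same test the adjusted p was 0.201 without Puro replicate 3, 0.121 without ABCC1 replicate 2 and 0.101 without ABCC1 replicate 3, and with the background as a covariate the log2FC was −0.42 (adjusted p = 0.762). The level stood at 1.12 to 1.61 times the background in the Puro and 0.561 to 1.07 times in the ABCC1 libraries.

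A further 3 noncoding RNAs, higher in RNA1 by the rule, also had higher values with ABCC1 in both repeats without passing the test there. PDC-AS1 (chromosome 1, 186420213 to 186420881, plus strand), antisense at the locus of the photoreceptor gene PDC, had 1, 2 and 3 counts against 46, 27 and 26 in RNA1, 13, 6 and 10 against 50, 28 and 22 in RNA2, and 3, 2 and 6 against 18, 11 and 26 in RNA3. In the ABCC1 libraries its level was 5.24 to 42.8 times the background in RNA2 and 2.55 to 5.87 times in RNA3, and the RNA2 log2FC was 1.64 (95% interval 0.18 to 3.09, adjusted p = 0.186 from edgeR), or 0.88 with the background as a covariate. ENSG00000235351 (chromosome 2, 242664030 to 242665108, minus strand) had log2FC values of 1.29 (adjusted p = 0.215) and 1.19 (adjusted p = 0.317) in RNA2 and RNA3 from the same test. With the background as a covariate these were 0.30 and 1.76, without RNA2 ABCC1 replicate 1 the former was 0.73, and without RNA3 Puro replicate 2 the latter was 0.66. It lies opposite ING5, a chromatin reader, which shares 36.0% of its exon bases and whose log2FC was 0.63 (adjusted p = 0.0545) in RNA2 and 0.59 (adjusted p = 0.0247) in RNA3 by edgeR. ENSG00000272121 had 35, 24 and 17 counts against 85, 70 and 161 in RNA1, 12, 15 and 12 against 25, 21 and 45 in RNA2, and 12, 13 and 5 against 44, 17 and 23 in RNA3, with log2FC values of 1.06 (adjusted p = 0.350) and 1.33 (adjusted p = 0.152) by edgeR. The RNA3 value was 0.88 without ABCC1 replicate 1. Its neighbour ENSG00000261786, 118149 bp away, gave −0.04 and 0.05.

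**Figure D3:**
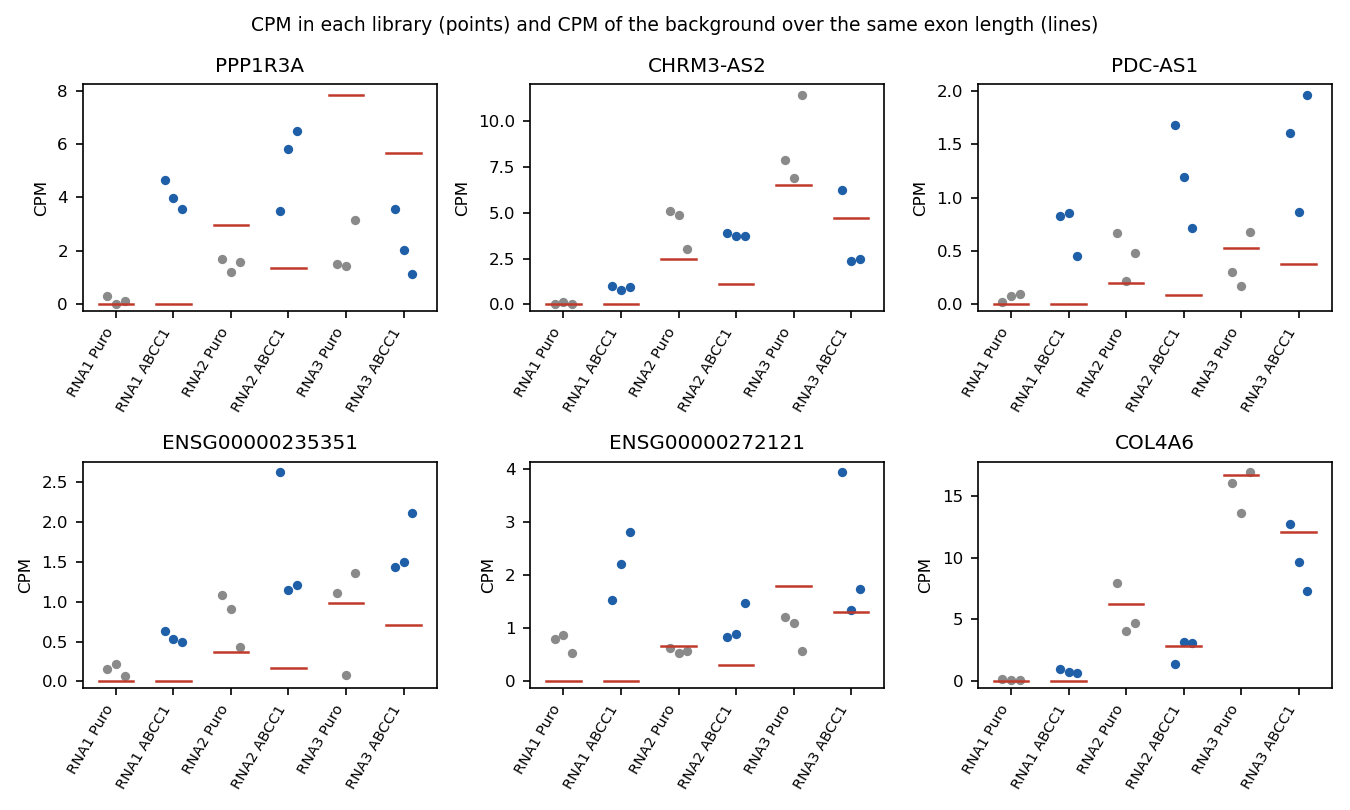
CPM of 6 genes in each library (points, grey for Puro and blue for ABCC1) over the 6 groups, with a red line at the CPM that the group's mean background would give over the same exon length. The ABCC1 points of PPP1R3A stand above the line in RNA2 and below it in RNA3, those of PDC-AS1 stay above it in both, and COL4A6 follows the line in both repeats.

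Among the signalling ligands, GHRH, the hypothalamic hormone that releases growth hormone, had 0 counts in each RNA1 Puro library and 88, 38 and 87 with ABCC1, a level at least 15.8-fold higher. In the repeats it was present in both groups, with 40, 15 and 22 counts against 25, 30 and 44 in RNA2 and 33, 23 and 14 against 18, 29 and 10 in RNA3. TGFB3, a growth factor that governs palate and tissue development, was already at 1.79 ± 0.215 CPM in RNA1 Puro cells and reached 5.70 ± 0.670 CPM (SD, n = 3 each). In RNA2 it had 8.23 ± 2.10 and 5.72 ± 1.398 CPM and in RNA3 18.4 ± 1.66 and 17.01 ± 4.22 CPM, with overlapping groups in both. TGFB3 stood above the background in the repeats, at 2.66 and 4.005 times its level in RNA2 and 2.23 and 2.85 times in RNA3.

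The 7 receptors and signal transducers had RNA1 log2 ratios from 1.52 to 3.88. GNAT3 encodes gustducin, the G protein subunit of taste cells, and went from 0 counts in every Puro library to 47, 16 and 40. ADCY8, a calcium-stimulated adenylyl cyclase of neurons, had 2, 3 and 0 counts against 68, 29 and 56. APLNR, the receptor of the peptide apelin, had 14, 5 and 13 counts against 185, 98 and 161, and P2RY6, a nucleotide receptor, 33, 19 and 18 against 173, 92 and 198. PLXNA4, a plexin that relays semaphorin guidance cues, was 4.92-fold higher, going from 107, 79 and 101 counts to 809, 432 and 786, and ADGRG2, an adhesion G protein-coupled receptor, 3.83-fold, from 157, 98 and 119 to 780, 428 and 817. None of the 7 was called in either repeat, by edgeR. PLXNA4 had 10.2 ± 4.22 CPM in Puro and 8.98 ± 1.95 CPM in ABCC1 cells of RNA2, and its log2FC was 0.05 (95% interval −0.46 to 0.57) there and 0.04 (−0.29 to 0.37) in RNA3. ADGRG2 gave 0.06 (−0.70 to 0.83) and −0.01 (−0.57 to 0.54), and APLNR 0.16 (−0.74 to 1.06) and −0.04 (−0.60 to 0.52). In the Puro libraries PLXNA4 stood at 0.73 to 1.18 times the background in RNA2 and 0.749 to 0.892 times in RNA3. ADGRG2 stood at 0.421 to 0.691 and 0.328 to 0.430 times, and APLNR at 0.889 to 1.06 and 0.595 to 1.33 times. Their values near 0 therefore do not show equal transcripts. GNAT3 had every ABCC1 library below every Puro library in RNA2 (11, 29 and 16 counts against 35, 38 and 33) with a log2FC of −0.97 (95% interval −2.24 to 0.30).

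The 5 genes of ion channels and cell junctions described here had RNA1 log2 ratios from 1.72 to 3.95. PKP3, a plakophilin of desmosomes, had 1, 0 and 3 counts in Puro and 76, 33 and 90 in ABCC1 libraries, at least 14.6-fold higher. GLRA4, a glycine receptor subunit gene, had 2, 2 and 1 against 43, 25 and 54, at least 9.18-fold higher. The others were ANO2, a calcium-activated chloride channel, CACNG8, a partner of AMPA receptors, and GJA3, a connexin of the lens. In RNA2 PKP3 had 24, 19 and 26 counts against 20, 27 and 93, highest in ABCC1 replicate 3, and its log2FC was 0.78 (95% interval −0.45 to 2.00). GLRA4 went the other way, with 74, 37 and 35 counts against 13, 16 and 32 and a log2FC of −1.44 (95% interval −2.62 to −0.26, adjusted p = 0.155 from edgeR). This was −0.92 without Puro replicate 1 and −0.47 with the background as a covariate. In RNA3 the log2FC of all 5 was below 0, from −0.65 to −0.32, and none was called by edgeR.

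Among the matrix and adhesion genes, COL4A5 and COL4A6 encode chains of basement membrane collagen that assemble together and whose genes share a promoter region. In RNA1 COL4A5 was 7.61-fold higher, from 4, 7 and 9 to 104, 51 and 76 counts, and COL4A6 5.52-fold, from 8, 4 and 4 to 57, 25 and 40. In RNA2 COL4A5 had 80, 52 and 31 counts against 9, 24 and 84 and COL4A6 153, 113 and 99 against 43, 75 and 94. In RNA3 they had 72, 62 and 72 against 80, 44 and 49, and 158, 160 and 149 against 142, 123 and 97. The log2FC of COL4A6 was −0.92 (95% interval −1.68 to −0.15, adjusted p = 0.162 from edgeR) in RNA2 and −0.53 (−0.93 to −0.14, adjusted p = 0.142) in RNA3. In all 4 groups of the repeats COL4A6 stood at 0.820 to 0.930 times the background per kb, and the background was itself lower in the ABCC1 groups. Its part in this result was examined only as a covariate. With it the log2FC was −0.13 in RNA2, where the background and the ABCC1 effect cannot be told apart, and −0.28 in RNA3. CNTN5, a neuronal adhesion molecule, OLFML1, an olfactomedin-like secreted protein, and LRRC17, a secreted leucine-rich repeat protein, had RNA2 log2FC values of −1.03, 1.18 and 0.89, and none of them was called by edgeR. With the background as a covariate CNTN5 had 0.40 and OLFML1 0.20, and without ABCC1 replicate 1 CNTN5 had −0.60.

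The enzymes and transporters included PPP1R3A, described above, and the lipid enzymes PLA2G4E, PTGS1 and LIPF. PLA2G4E, a cytosolic phospholipase A2, had 0 counts in each RNA1 Puro library and 35, 22 and 43 in ABCC1 libraries. In RNA2 it had 197, 121 and 149 against 68, 66 and 188 and in RNA3 180, 155 and 157 against 187, 156 and 142, and overlapped in both. PTGS1, the constitutive cyclooxygenase, was 4.10-fold and LIPF, the gastric lipase, 4.70-fold higher in RNA1. LGSN, a lens relative of glutamine synthetase, had the smallest relative SD of the 52 in RNA1 ABCC1 cells, with 187, 110 and 192 counts against 10, 3 and 6 (3.40 ± 0.0686 CPM against 0.176 ± 0.0608, SD, n = 3 each). It gave log2FC values of −0.17 (95% interval −1.13 to 0.79) in RNA2 and −0.21 (−0.81 to 0.39) in RNA3. DIO2, the deiodinase that activates thyroid hormone, was 9.82-fold and the chaperone gene DNAJC15 9.45-fold higher in RNA1. The decarboxylase gene GADL1 was 6.08-fold higher, ABCC11, an exporter of the same family as ABCC1, 4.81-fold and the proton pump subunit gene ATP6V1C2 4.12-fold. In the repeats these last 5 genes had log2FC values between −0.92 and 0.09, with none called by edgeR, and the lowest, DIO2 in RNA2, was −0.55 without Puro replicate 1.

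FMN1, a formin that nucleates actin filaments, was the most abundant gene of the set, with 6.93 ± 0.588 CPM in RNA1 Puro and 20.1 ± 1.27 CPM in ABCC1 cells (SD, n = 3 each). S100A10, the partner of annexin A2, followed a similar course, from 3.95 ± 0.316 to 11.5 ± 0.450 CPM. Both were 2.90-fold higher. In RNA2 FMN1 had 13.1 ± 2.87 and 12.2 ± 1.70 CPM and S100A10 2.35 ± 1.55 and 2.24 ± 0.614 CPM. FMN1 had a log2FC of 0.11 (95% interval −0.27 to 0.48) in RNA2 and −0.06 (−0.39 to 0.26) in RNA3. Its level was 0.912 to 1.16 times the background in the Puro and 1.54 to 4.08 times in the ABCC1 libraries of RNA2. In RNA3 it was 0.806 to 0.909 and 0.955 to 1.07 times. So near the background, a log2FC near 0 does not show that the transcript was equal. S100A10 gave 0.17 (−0.80 to 1.15) and −0.02 (−0.58 to 0.54) at 2.31 to 5.002 times the background. CAVIN1, a coat protein of caveolae, and MYO3B, a myosin of hair cells and retina, had log2FC values of −0.90 and −0.51 in RNA2 and −0.24 and −0.40 in RNA3. With the background as a covariate CAVIN1 had −0.10 in RNA2 and MYO3B −0.07 in RNA3. Without RNA2 ABCC1 replicate 3 CAVIN1 had −1.36, and without RNA3 Puro replicate 1 MYO3B had −0.18.

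Of the nuclear and cell cycle regulators, ERFL, a relative of the ETS repressor ERF, had 1, 2 and 3 counts in the RNA1 Puro libraries and 163, 94 and 217 with ABCC1, a level at least 35.5-fold higher. Its counts were low in the repeats, with 12, 20 and 4 against 30, 15 and 23 in RNA2 and 11, 7 and 18 against 13, 14 and 24 in RNA3. The log2FC was 0.87 (95% interval −0.68 to 2.41) in RNA2 and 0.30 (−0.80 to 1.41) in RNA3. FOXC1, a forkhead factor of mesenchyme and eye, was 3.27-fold higher in RNA1, from 1.75 ± 0.0335 to 5.72 ± 0.533 CPM (SD, n = 3 each). In RNA2 all of its ABCC1 libraries (38, 34 and 51 counts) had a lower CPM than the Puro libraries (58, 82 and 43), and in RNA3 the groups overlapped. As multiples of the background its RNA2 groups overlapped too, at 1.03 to 1.62 in the Puro and 1.11 to 2.96 in the ABCC1 libraries. BRINP1, an inhibitor of the cell cycle in neurons, had log2FC values of −1.10 in RNA2 and 0.22 in RNA3, and the former was −0.55 without Puro replicate 1 and 0.01 with the background as a covariate.

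The 15 noncoding RNAs spanned the widest range in RNA1, with log2 ratios from 1.503 to 6.18. ENSG00000236098 (chromosome 1, 94784035 to 94790125, minus strand), a lincRNA that overlaps no other gene, had the largest ratio of the set, with 0 counts in every Puro library and 205, 114 and 195 in the ABCC1 libraries. In the repeats it was too low to be tested, with 6, 8 and 0 counts against 4, 2 and 19 in RNA2 and 15, 10 and 7 against 10, 3 and 7 in RNA3. ENSG00000261638 was also too low for a test in both repeats. ENSG00000241168 had 1, 2 and 3 counts against 38, 33 and 43 in RNA1 and lay the other way in RNA2, with 35, 37 and 20 against 3, 4 and 18 (log2FC −2.05, 95% interval −3.60 to −0.49, adjusted p = 0.132 from edgeR), and its log2FC was −0.82 with the background as a covariate. ENSG00000233214, a lincRNA of 0.591 kb on chromosome 19, had every ABCC1 library below every Puro library in both repeats on the CPM scale, with 0.737 ± 0.197 against 0.427 ± 0.154 CPM in RNA2 and 1.91 ± 0.393 against 0.876 ± 0.224 CPM in RNA3 (SD, n = 3 each). As multiples of the background its groups overlapped, with 1.92 to 3.66 in Puro and 1.83 to 8.365 in ABCC1 libraries of RNA2. In RNA3 these were 1.80 to 3.24 and 0.9275 to 2.21. MIR4500HG, the host transcript of a microRNA, had 1, 0 and 1 counts against 34, 13 and 34 in RNA1. In RNA2 it had 49, 31 and 16 against 6, 25 and 72, and in RNA3 50, 25 and 46 against 36, 33 and 25. Over the noncoding RNAs tested the median log2FC was −0.04 in RNA2 (12 tested, from −2.05 to 1.64) and −0.45 in RNA3 (11 tested, from −1.14 to 1.33).

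The level of the genes in the repeats was close to the background. Per kb of exon, the median of the 52 was 1.12 times the background in RNA2 Puro, 1.89 times in RNA2 ABCC1, 0.852 times in RNA3 Puro and 1.03 times in RNA3 ABCC1 cells. At or below the background were 24 of them in RNA2 Puro, 9 in RNA2 ABCC1, 31 in RNA3 Puro and 25 in RNA3 ABCC1 cells. Only 3, 15, 2 and 3 of the 52 lay above the 95th percentile of the olfactory receptor genes in those groups. For a gene at the background, a log2FC near 0 does not show that its transcript was equal in both groups.

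**Figure D4:**
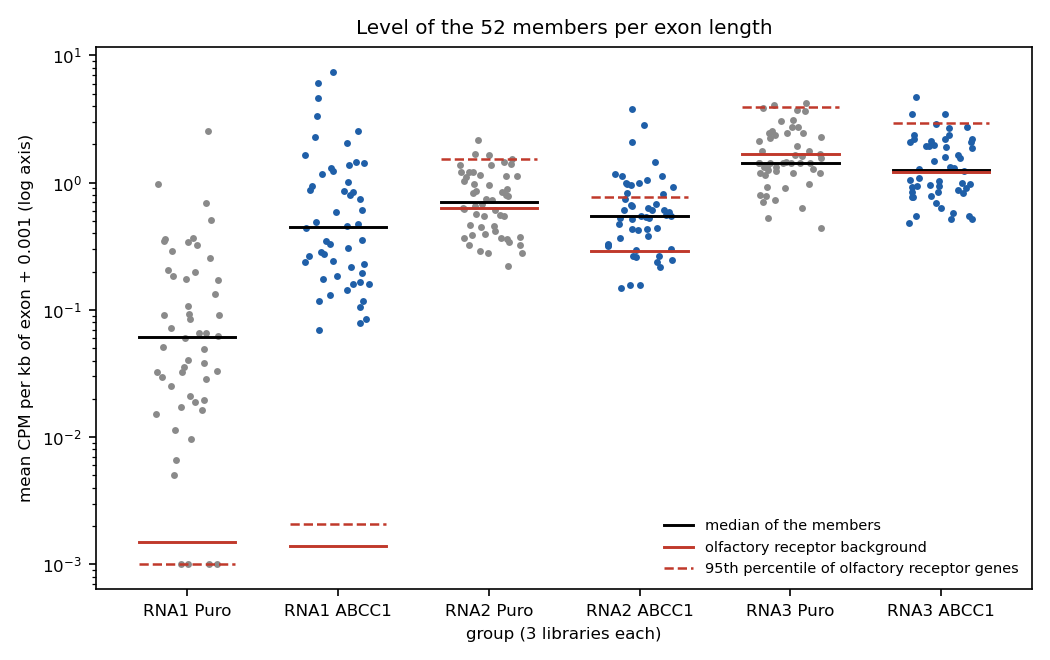
Mean CPM per kb of exon plus 0.001 (log axis) of the 52 genes in the 6 groups, grey for Puro and blue for ABCC1, with the median of the genes (black), the mean background of the olfactory receptor genes (red) and their 95th percentile (red, dashed). In RNA2 and RNA3 the genes spread around the red lines, while the RNA1 levels were used to choose them.

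Between the ABCC1 cells of the repeats, 13 of the 52 genes were higher in RNA3 than in RNA2 and 2 were lower (edgeR's quasi-likelihood test in the fit of 12 libraries), where 18.5% of all genes were called higher and 15.9% lower. The higher ones included BRINP1 (1.70 on the log2 scale), ANO2 (1.29), COL4A6 (1.19), DGKG, a diacylglycerol kinase (1.13), and TGFB3 (0.82). The lower ones were PPP1R3A (−2.004, adjusted p = 2.60e-04) and CHRM3-AS2 (−0.84, adjusted p = 0.0476) by the same test. The call of CHRM3-AS2 was lost without either RNA2 Puro replicate 1 or 2, any RNA3 Puro library, RNA2 ABCC1 replicate 1 or 2, or RNA3 ABCC1 replicate 2 or 3, each of which left 1 gene called lower. Without RNA3 ABCC1 replicate 1 the higher calls numbered 7. The background was higher in RNA3 than in RNA2, and with it as a covariate 0 of the 52 were called higher by edgeR. Whatever else differed between the experiments cannot be told apart from this comparison.

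Of 124 nearest or overlapping neighbours, 51 had at least 0.5 CPM in either RNA1 group. Their median log2 ratio in RNA1 was 0.08, against 0.04 over all such genes, and 3 of them reached 1, where 1.09% of all such genes did. Those 3 were SPRY1 (1.12), 246511 bp from LINC01091, GREM1 (1.18), 30876 bp from FMN1, and ENSG00000232680 (1.44), 8304 bp from ENSG00000233214. LRRC55, below the minimum and 41859 bp from APLNR, went from 0.00763 to 0.332 CPM. Within 1 Mb of the 52 genes, 741 genes above the minimum had a median of 0.03, with 9 at 1 or more and 15 at −1 or less. CD36, which overlaps GNAT3 on the other strand, had −0.91 and SEMA3C, 230517 bp away, −0.99 in RNA1. Among the 124 neighbours 2 were called higher and 2 lower in RNA2 by edgeR, where 1.25% and 0.458% of all genes were, and 3 higher and 1 lower in RNA3, where 2.03% and 0.767% were. Among them were CD36, which was lower in RNA2 (log2FC −1.46, adjusted p = 0.0424), and SEMA3C, lower in RNA3 (log2FC −0.70, adjusted p = 0.00523).

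**Figure D5:**
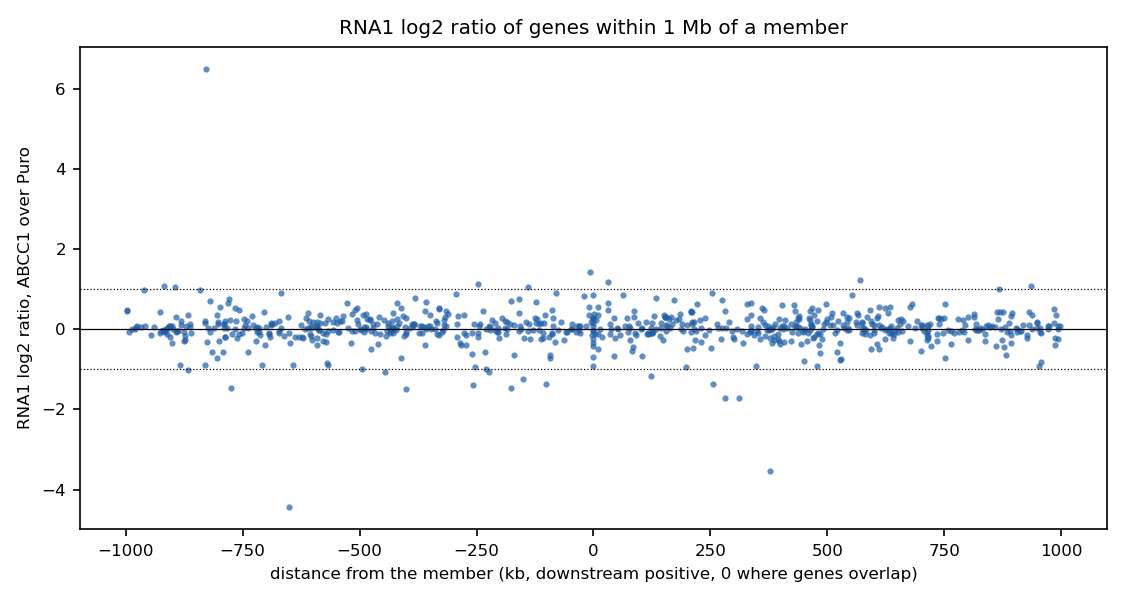
RNA1 log2 ratio of genes with at least 0.5 CPM against their distance in kb from each of the 52 genes they lie within 1 Mb of, downstream positive. Most points lie between −1 and 1 (dotted lines) at every distance, and the highest is IL1RAPL2, 827412 bp upstream of GLRA4.

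For the lists below, the shares over all genes tested were 1.25% called higher and 0.458% lower in RNA2, and 2.03% and 0.767% in RNA3. Of 29 ETS transcription factors, ERFL included, 2 were called higher and 0 lower in RNA2 and 1 higher and 1 lower in RNA3 by edgeR, with median log2FC values of 0.08 and 0.09. Of 60 axon guidance genes, which include PLXNA4, 0 were higher and 2 lower in RNA2 and 2 higher and 5 lower in RNA3. Of 42 extracellular matrix genes 1 was higher and 4 lower in RNA2 and 0 higher and 2 lower in RNA3. Of 21 immediate early genes 4 were higher in RNA2 and 6 in RNA3, with 0 lower in both, and 0 of the 52 genes was among them. Of 19 genes of the mesenchymal neuroblastoma state 1 was higher in RNA2 and 0 in RNA3. Of 21 interferon-stimulated genes 0 were called in either direction in both repeats (medians −0.51 and −0.19), and of 17 NRF2 target genes 0 were higher and 1 lower in RNA2 and 0 were called in RNA3. Of 8 fibroblast, 6 epithelial and 8 Schwann cell and melanocyte markers 0 were called in either repeat. Their median log2FC values were −0.41, −0.95 and −0.34 in RNA2 and −0.32, −0.07 and −0.14 in RNA3, against −0.19 and −0.09 over all genes tested. Of 5 endothelial markers 1 was lower in RNA2 and 0 in RNA3, with medians of −1.01 and −0.09, and the immune markers had medians of −0.82 and −0.40. Of 12 neuroblast identity genes 0 were higher and 1 lower in RNA2 and 1 higher and 3 lower in RNA3.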

How the data were processed

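RNA-seq counts of 18 libraries were used. Per the labels and the submitters' processing notes, the authors ran bcl2fastq 2.18, STAR 2.7.3a against GRCh37 and featureCounts of Subread 2.0.0, and deposited raw counts of read pairs per gene, by exon and without strand, although the kit of RNA2 and RNA3 keeps the strand. Counts of spike-ins and vectors (0.354% to 1.32% of a library) stayed out of CPM and tests. The low counts of the genes studied limit the precision in every library, and the floor of 3 counts covers counting error only. Symbols were given for 39880 of 57905 identifiers and GENCODE 29 biotypes for 52338. Groups were tested in R 4.3.3 with edgeR 4.0.16 (TMM, filterByExpr with a minimum count of 10, robust quasi-likelihood fit, two-sided, Benjamini-Hochberg over all genes tested) within RNA2, within RNA3 and over 12 libraries for their difference. DESeq2 1.42.0, limma-voom 3.58.1, other scaling, filters, a replicate block, the background as a covariate and each library left out were alternatives. The RNA1 fold of PPP1R3A without each library and the count of signs with the covariate were added after the data were seen. The fits were tested on simulated data.

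The genes and lists were chosen with earlier results of these data known. Genes were named by the 12 largest RNA1 ratios, the 8 highest RNA1 levels, the calls in RNA2 and RNA3, proximity within 1 Mb and the edges of the thresholds. The others were named by role after their values were seen. Replicate numbers, taken from the labels, showed no pairing of the samples in the counts (mean correlation of same-numbered libraries −0.121 in RNA2 and 0.051 in RNA3). The study plated cells of each line weekly, and whether a replicate number stands for a week is not known here. The values of 1 gene of the set are not reported here, though the counts over the 52 include it.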

Additional observations from a re-analysis of the deposited data

Results flagged for a closer look

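Between experiments, 10 genes had every ABCC1 library above every Puro library in RNA1 and every ABCC1 library below in RNA2: GNAT3, GLRA4, ENSG00000241168, ANO2, COL4A6, CACNG8, GJA3, ENSG00000233214, FOXC1 and DGKG. In the same way 4 genes among those tested in RNA3, CHRM3-AS2, DNAJC15, COL4A6 and ENSG00000233214, lay above in RNA1 and below in RNA3. ENSG00000250046 did so too, with too few counts in RNA3 for a test. The RNA1 direction was fixed by the choice of genes, and the difference from RNA1 was not tested. Among all genes tested 22.3% lay below in RNA2 and 14.5% in RNA3.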

How the results depend on the processing

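No gene was called higher in RNA3, or different in its ABCC1 effect between the repeats, under any alternative run. PPP1R3A stayed the only call higher in RNA2 in the alternatives that kept all libraries, and the count ranged from 0 to 1 when a library was left out. Its adjusted p was at most 0.05 in 11 of 14 alternatives (9.97e-06 to 0.0979). Calls lower in RNA2 went from 0 to 4 with a spread shared by the repeats (ANO2, COL4A6, DGKG and ENSG00000241168) and ranged from 0 to 2 with a library left out. The 1 call lower in RNA3, CHRM3-AS2, became 0 with the background covariate, with the shared spread and with DESeq2, which gave it no adjusted p, and 0 to 2 with a library left out. It is also 0 among genes of at least 1 CPM or protein-coding genes, since CHRM3-AS2 is neither. The 13 genes higher in RNA3 than RNA2 ABCC1 cells became 0 with the covariate, 7 at a log2 ratio of at least 2, 7 at 1 CPM and 7 to 19 with a library left out. The 2 lower became 1 with no filter, 1 with a minimum of 10 counts in each library, 1 at 1 CPM, 1 among protein-coding genes and 1 to 2 with a library left out. With the covariate the RNA2 log2FC turned positive for DGKG (0.03), BRINP1 (0.01), CNTN5 (0.40), ANO2 (0.03) and PLA2G4E (0.08). In RNA2 the background and the ABCC1 effect cannot be told apart, and the cause was not tested. The replicate block changed no call, with 1 higher and 0 lower in RNA2, 0 higher and 1 lower in RNA3 and 0 different. Levels between experiments could not be fitted with it. The rule gave 13 genes with a pseudocount of 0.5 CPM, 61 with 0.01, 51 with TMM scaling and 53 to 57 with an RNA1 library left out, of which 46 to 50 were among the 52. Low counts limit these genes in every library.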
